A study of Arabidopsis thaliana with 104 samples.

Results

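The comparison asks how seedlings of the Arabidopsis thaliana double mutant phr1 phl1, grown at low inorganic phosphate (Pi), differed with and without a synthetic community of bacteria (SynCom). It rests on the 12 libraries labelled phr1 phl1 and low Pi among the 72 libraries of experiments C, D and E; the series also holds libraries of experiments A and B, which have no such seedlings. They form 2 groups, 6 libraries with SynCom and 6 with no bacteria, 2 of each from every one of the 3 experiments. All seedlings germinated over 7 days on plates with 1 mM Pi and 0.5% sucrose, and were then moved for 12 days to plates without sucrose. The plates held 50 µM Pi and SynCom in the first group, and 50 µM Pi alone in the second. For comparison, the single mutant phr1 and the wild-type accession Col-0 at 50 µM Pi, each with SynCom or with no bacteria, and phr1 phl1 at 625 µM Pi, with SynCom or with no bacteria, were taken from the same 3 experiments, 6 libraries a group. Polyadenylated RNA of whole seedlings was sequenced without strand information and counted per gene. The labels do not name the mutant alleles, and nothing states that the 2 libraries of a group in 1 experiment came from separate plates, so p-values measure the spread between these libraries.

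PHR1 and PHL1 are related MYB transcription factors that bind a short motif upstream of Pi starvation genes and switch them on when Pi runs short. When Pi is ample, SPX proteins hold PHR1 off the DNA. The genes so controlled take up Pi, free it from organic compounds, and exchange the phospholipids of membranes for galactolipids and sulpholipids. In Arabidopsis, PHR1 has also been tied to the strength of immune responses to root bacteria.

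Total counts per library ran between 2337430 and 3228314 with SynCom, and between 955174 and 4856235 with no bacteria. The library with 955174 counts, replicate 2 of experiment E with no bacteria, had the fewest of the 72 libraries of experiments C, D and E. Among the other libraries of these experiments, 1 phr1 phl1 and 1 phr1 library at high Pi with no bacteria and 1 Col-0 library at low Pi with SynCom, all from experiment D, lay far from the rest of their groups. Where libraries that lay apart were left out below, these and the library with 955174 counts were dropped. The photosynthesis list, a shoot marker of 25 genes, summed to a lowest, median and highest value of 76200, 87800 and 93900 CPM (counts scaled to library size) in phr1 phl1 with SynCom, against 96400, 104000 and 115000 with no bacteria, so the groups did not overlap. In Col-0 the same sum was 4460, 61800 and 109000 CPM with SynCom, against 108000, 119000 and 131000 with no bacteria. The root hair list of 17 genes summed to 30.9, 38.4 and 229 CPM with SynCom and 42.9, 53 and 216 CPM with no bacteria in phr1 phl1. None of these markers was at 0 throughout either phr1 phl1 group. The part of the shoot marker's shift in the results below was not tested.

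Messages of both mutated genes were still read, which says nothing of their proteins. PHR1 ran at 26.6, 30.7 and 36 CPM (lowest, median, highest) with SynCom, against 27.6, 41.9 and 47.9 with no bacteria. In Col-0 at low Pi, PHR1 averaged 60.2 ± 7.29 CPM with SynCom and 71.6 ± 3.79 CPM with no bacteria (SD, n = 6 each). PHL1 ran at 42.1, 107 and 167 CPM with SynCom and 68, 112 and 172 CPM with no bacteria in phr1 phl1. In Col-0 it averaged 15.1 ± 4.32 CPM with SynCom and 15.4 ± 2.58 CPM with no bacteria. Thus the double mutant held fewer PHR1 reads and more PHL1 reads than Col-0. Neither gene passed the test of SynCom against no bacteria: log2 fold changes were −0.38 ± 0.14 for PHR1 (SE; adjusted p = 0.0627) and −0.16 ± 0.28 for PHL1 (adjusted p = 0.782). PHR1 shares reads with the overlapping locus AT4G28600.

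SynCom changed 2241 of 18216 genes tested (12.3%) in phr1 phl1 at low Pi, by edgeR's quasi-likelihood test with Benjamini-Hochberg adjustment at 0.05. Of these, 1288 were higher (7.07%) and 953 lower (5.23%) with SynCom. More than 2-fold changes numbered 624 higher (3.43%) and 180 lower (0.988%). Of the 2241 genes, 1973 moved with one sign in experiments C, D and E. The same test gave 4148 genes (22.8%) for Col-0 seedlings, 11.6% of all genes being higher and 11.2% lower. It gave 3290 genes (18.1%) for phr1, 9.55% higher and 8.51% lower. For phr1 phl1 at high Pi it gave 288 genes (1.58%), 0.461% higher and 1.12% lower. In whole seedlings, fewer cells of a type and less RNA per cell cannot be told apart. The count of 2241 fell to 961 when the 2 libraries of a group in each experiment were summed to 1, to 423 without experiment C, to 507 without experiment D and to 1283 without the SynCom library D2.

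Of the genes higher with SynCom in phr1 phl1, 421 were also higher in Col-0, which is 32.7% of the phr1 phl1 genes and 20% of the Col-0 genes, and 24 were lower there. With phr1, 771 were shared, 59.9% of the phr1 phl1 genes and 44.3% of the phr1 genes. With phr1 phl1 at high Pi, 33 were shared, 2.56% of the low-Pi genes and 39.3% of the high-Pi genes. Of the lower genes, 246 were shared with Col-0 (25.8% and 12.1%), 378 with phr1 (39.7% and 24.4%) and 86 with high Pi (9.02% and 42.2%). Across all genes the log2 fold changes had a Pearson r of 0.724 with those of phr1, 0.471 with Col-0 and 0.264 with high Pi. These r values are across genes, which are not independent replicates, and libraries of the 4 comparisons come from the same experiments.

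Genes of the Pi starvation response rose with SynCom although both regulators are mutated. Of 48 tested genes in 3 lists, one for transport and signalling of Pi, one for phosphatases and other scavenging enzymes, and one for remodelling of membrane lipids, 24 were higher and 0 lower, where 7.07% of all genes were higher. The median log2 fold change of the 48 genes was 0.98, against −0.00 over all genes tested. Another 10 of the 58 listed genes had too few counts to be tested, so the 48 are not all members. The 24 were picked by a test on these same libraries. All 24 had a positive fold change in each of experiments C, D and E, where 1973 of the 2241 genes called kept their sign. In 11 of the 24 every SynCom library lay above every library with no bacteria, which was not counted over all genes. The count of 24 was 22 to 26 without 1 library, 15 without experiment C, 19 without D and 4 in E alone. Of the 24, 23 also rose in Col-0, where 32.7% of all genes higher in phr1 phl1 did. Fold changes of 21 were smaller in phr1 phl1 than in Col-0, which was not counted over all genes called.

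The 250 bases upstream of 6 of these genes or their relatives are printed here to show where the PHR1 motif lies in genes that did and did not rise. They are from RefSeq's assembly TAIR10.1, read 5′ to 3′ on the gene's strand and ending 1 base before the annotated gene start, and matched by locus. Capitals mark the motif GNATATNC, which reads the same on both strands. AT4 and MGD2 hold it close to the start, GDPD1 holds 2 copies, PPsPase1 holds 1 far from the start, AT3G25790, which fell, holds 3, and SPX1 holds none in this window.
AT4, chr5:894332-894581, plus strand: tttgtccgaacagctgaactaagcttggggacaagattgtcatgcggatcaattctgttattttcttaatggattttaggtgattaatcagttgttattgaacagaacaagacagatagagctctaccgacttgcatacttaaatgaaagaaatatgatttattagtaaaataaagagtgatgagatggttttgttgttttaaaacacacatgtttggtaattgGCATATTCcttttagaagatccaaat
MGD2, chr5:6896213-6896462, plus strand: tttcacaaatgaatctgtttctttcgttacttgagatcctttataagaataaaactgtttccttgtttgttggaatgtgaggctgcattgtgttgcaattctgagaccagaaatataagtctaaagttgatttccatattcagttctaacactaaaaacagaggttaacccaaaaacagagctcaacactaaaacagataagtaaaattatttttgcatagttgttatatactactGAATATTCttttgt
GDPD1, chr3:350011-350260, minus strand: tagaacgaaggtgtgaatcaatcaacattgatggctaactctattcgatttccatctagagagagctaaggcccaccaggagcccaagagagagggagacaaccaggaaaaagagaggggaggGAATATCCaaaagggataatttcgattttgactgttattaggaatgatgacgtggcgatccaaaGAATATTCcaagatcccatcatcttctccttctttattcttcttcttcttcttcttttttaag
PPsPase1, chr1:27466349-27466598, minus strand: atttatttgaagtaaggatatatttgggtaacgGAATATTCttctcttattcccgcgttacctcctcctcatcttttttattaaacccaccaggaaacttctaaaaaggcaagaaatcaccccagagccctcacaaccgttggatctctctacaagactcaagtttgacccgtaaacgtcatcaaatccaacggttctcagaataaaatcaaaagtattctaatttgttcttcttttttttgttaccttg
AT3G25790, chr3:9412802-9413051, plus strand: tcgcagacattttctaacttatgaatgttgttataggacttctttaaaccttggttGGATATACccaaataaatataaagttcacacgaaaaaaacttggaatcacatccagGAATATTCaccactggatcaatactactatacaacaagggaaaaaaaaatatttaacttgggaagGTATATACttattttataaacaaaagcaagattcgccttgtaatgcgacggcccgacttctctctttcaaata
SPX1, chr5:6802032-6802281, plus strand: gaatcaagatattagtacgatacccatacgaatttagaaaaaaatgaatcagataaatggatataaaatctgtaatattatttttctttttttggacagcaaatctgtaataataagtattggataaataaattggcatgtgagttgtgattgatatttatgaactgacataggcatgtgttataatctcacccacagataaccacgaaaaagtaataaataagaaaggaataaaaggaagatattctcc

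Counted from the gene start, the first motif base lay at −26 in AT4, −14 in MGD2, −127 and −63 in GDPD1, −217 in PPsPase1, and −194, −138 and −73 in AT3G25790. Of the 18204 tested genes matched to RefSeq, 998 (5.48%) held the motif in such a window. The share was 7.22% (93 of 1288) among genes higher with SynCom in phr1 phl1 and 4.73% (45 of 952) among those lower. Among genes higher in Col-0 it was 8.4% (177 of 2108). Of genes whose SynCom effect was lower in phr1 phl1 than in Col-0, 10.6% (66 of 623) held it, and of those whose effect was higher, 5.88%. In the 3 Pi lists, 14 of 48 tested genes held it, 8 of them among the 24 that rose. A match is a string of letters, not a shown binding site.

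Of the Pi transport and signalling genes, 9 of 19 tested rose and 0 fell. SPX1, which encodes a Pi sensor that restrains PHR1, had 120, 119, 142, 135, 22.5 and 80.4 CPM in SynCom libraries C1, C2, D1, D2, E1 and E2, against 9.54, 9.21, 24.2, 18.9, 19.7 and 18.6 CPM in the matching libraries with no bacteria. Only SynCom library E1 fell within the range of the libraries with no bacteria, just under D1 of that group. The log2 fold change was 2.59 ± 0.33 (SE; adjusted p = 1.17e-07). AT4, a non-coding RNA that sequesters miR399, had 345, 475, 303, 378, 25.8 and 148 CPM with SynCom, against 13.2, 8, 41.8, 20.2, 23.8 and 34.1 CPM with no bacteria. Again only E1 overlapped the group with no bacteria, and the log2 fold change was 3.56 ± 0.52 (adjusted p = 1.52e-06). IPS1, a second RNA of this kind, ran at 6.54, 22.8 and 58.1 CPM (lowest, median, highest) with SynCom and 0.609, 1.54 and 3.88 CPM with no bacteria, without overlap (3.65 ± 0.55, adjusted p = 3.47e-06). SPX2 rose less, by a log2 of 0.98 ± 0.22 (adjusted p = 0.00129), whereas SPX3 was near 0 reads in both groups, with medians of 0.407 and 0.155 CPM, and did not pass the test.

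PHO2, the ubiquitin-conjugating enzyme that removes Pi transporters and whose message miR399 cuts, was among the genes that rose. It had 554, 605 and 948 CPM (lowest, median, highest) with SynCom, against 344, 389 and 578 CPM with no bacteria, so the groups overlapped at their edges. The log2 fold change was 0.66 ± 0.19 (adjusted p = 0.0137), and the call was lost without SynCom library D2 (0.55, adjusted p = 0.0702). In Col-0 PHO2 fell with SynCom, at 127 ± 22.4 CPM against 193 ± 57.4 CPM with no bacteria (log2 −0.62 ± 0.19, adjusted p = 0.015). The difference between the genotypes was 1.27 ± 0.27 (adjusted p = 0.00302). PHO2 was the only gene of the 3 Pi lists to pass the test with a higher SynCom effect in phr1 phl1 than in Col-0. Of the 48 differences, 8 were positive, with or without passing.

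The plasma membrane Pi transporters PHT1;1 and PHT1;4 rose. PHT1;1 had 94.8, 71.3, 68.4, 95.5, 57.7 and 135 CPM in SynCom libraries C1 to E2, against 6.59, 11.1, 8.05, 5.13, 38 and 61 CPM with no bacteria. Experiment E stood higher with no bacteria than C and D did, and its replicate 2 was the only one to reach the SynCom range. The log2 fold change was 2.62 ± 0.36 (adjusted p = 4.35e-07). PHT1;4 ran at 21.4, 31.7 and 47.2 CPM with SynCom and 1.36, 3.46 and 15.8 CPM with no bacteria, without overlap (2.71 ± 0.45, adjusted p = 2.03e-05). PHT1;2 was read at 0.791 to 5.63 CPM with SynCom and in 1 library with no bacteria, at 1.03 CPM, so its fitted fold change of 4.77 depends on how zeros are treated. PHT1;1, PHT1;2 and PHT1;3 are neighbouring near-identical copies among which reads may be split. PHF1, which guides these transporters out of the endoplasmic reticulum, ran at 13.1 to 22.5 CPM with SynCom and 4.81 to 11.4 CPM with no bacteria (0.98 ± 0.27, adjusted p = 0.00835).

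Of the phosphatase and Pi scavenging genes, 7 of 13 tested rose and 0 fell. PAP17, a purple acid phosphatase, had 45.3, 54.9, 35.6, 131, 55.6 and 105 CPM with SynCom, against 5, 5.57, 6.2, 4.81, 19.9 and 35.1 CPM with no bacteria. The groups met only at their edges, SynCom D1 lying just above replicate 2 of experiment E with no bacteria. Its log2 fold change was 2.79 ± 0.39 (adjusted p = 8.13e-07). AT1G13750, another purple acid phosphatase, had a median of 36.7 CPM with SynCom and 9.47 CPM with no bacteria, without overlap (1.87 ± 0.24, adjusted p = 1.17e-07). PPsPase1, a pyrophosphatase, ran at 8.35, 24.5 and 32.8 CPM with SynCom and 0.454, 1.73 and 6.5 CPM with no bacteria (3.11 ± 0.59, adjusted p = 0.00016). The glycerol-3-phosphate permease gene G3Pp1 (2.36 ± 0.43), the kinase gene PPCK1 (1.16 ± 0.25) and the phosphatase gene PAP12 (0.87 ± 0.16) rose as well. PAP10 rose by 0.99 ± 0.31 (adjusted p = 0.0246), and lost its call without SynCom C2, SynCom D2 or either library of experiment C with no bacteria (adjusted p up to 0.0783). PEPC1, a phosphatase for phosphocholine and phosphoethanolamine, had medians of 5.3 CPM with SynCom and 0.862 CPM with no bacteria and missed the threshold (1.84 ± 0.69, adjusted p = 0.0659).

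Of the membrane lipid genes, 8 of 16 tested rose and 0 fell. SQD1, which makes the sugar donor of sulpholipid, had 205, 190, 183, 233, 102 and 180 CPM with SynCom, against 47.5, 41.4, 66.6, 59, 53.8 and 47.5 CPM with no bacteria. GDPD1, a glycerophosphodiester phosphodiesterase, had 197, 205, 164, 206, 91.5 and 144 CPM with SynCom, against 20.9, 22.5, 44.3, 37.5, 45.9 and 51.7 CPM with no bacteria. For both genes every SynCom library lay above every library with no bacteria, and SynCom E1 was the lowest of its group. Log2 fold changes were 1.77 ± 0.16 for SQD1 (adjusted p = 4.21e-12) and 2.21 ± 0.24 for GDPD1 (adjusted p = 8.81e-10). The galactolipid synthase gene MGD2 ran at 30.5, 43.2 and 56 CPM with SynCom and 3.88, 13.2 and 26.9 CPM with no bacteria (1.78 ± 0.26, adjusted p = 1.41e-06). The phospholipase D gene PLDZETA2 rose by 2.28 ± 0.39, the sulpholipid synthase gene SQD2 by 0.97 ± 0.24, DGD1 by 0.83 ± 0.14 and UGP3 by 0.56 ± 0.14. MGD3, the sister gene of MGD2, rose by 1.48 ± 0.49 (adjusted p = 0.0342), but its call was lost without SynCom library E2, which at 28.5 CPM stood far above the others (0.96, adjusted p = 0.199), or without library C1, C2 or D2 with no bacteria (adjusted p up to 0.104). Without experiment E, the one with the fewest genes called alone, the Pi genes named with values per library kept their calls; in experiment E alone SQD1 and GDPD1 kept theirs.

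**Figure D1:**
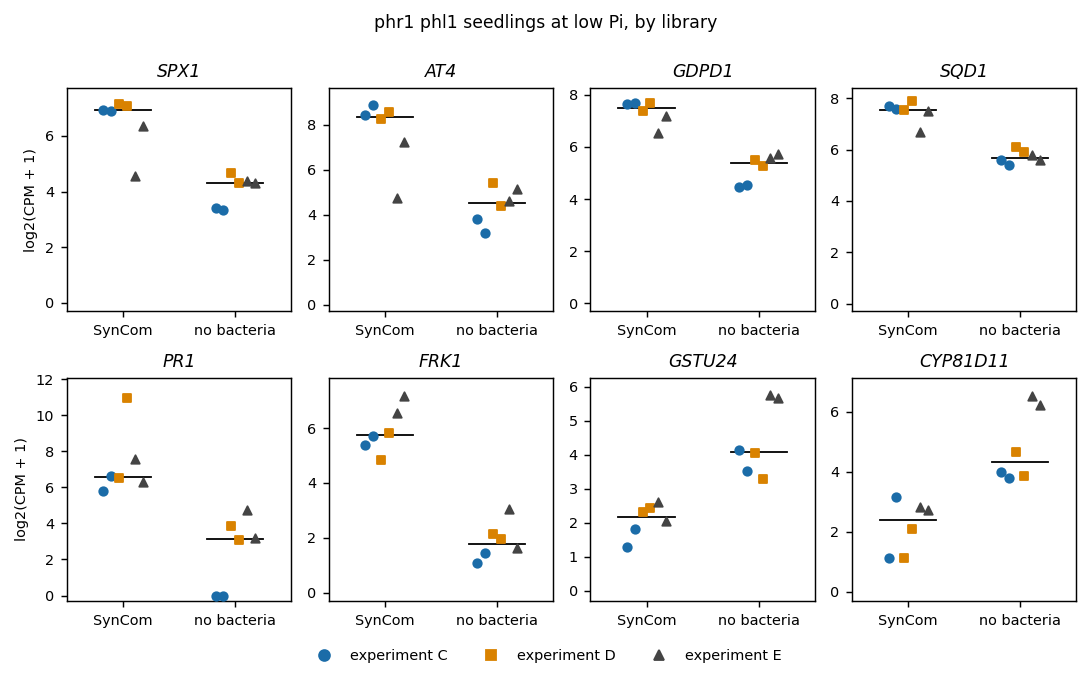
Levels of 8 genes in each phr1 phl1 library at low Pi, as log2(CPM + 1) on the y axis, with SynCom left and no bacteria right; points are libraries, shapes and colours the experiments, and lines the group medians. SynCom E1 is the lowest SynCom library for SPX1, AT4, GDPD1 and SQD1, and for FRK1, GSTU24 and CYP81D11 the 2 groups do not overlap.

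The Pi genes responded less in phr1 phl1 than in Col-0. Tested directly, 24 of the 48 genes had a lower SynCom effect in phr1 phl1 and 1 a higher one, where 3.42% of all genes were lower and 6.6% differed in either direction (1202 genes, 579 higher and 623 lower). SPX1 averaged 103 ± 44.7 CPM with SynCom and 16.7 ± 6.01 CPM with no bacteria in phr1 phl1, and 570 ± 431 and 14.5 ± 6.29 CPM in Col-0, a difference of log2 fold changes of −2.57 ± 0.45 (adjusted p = 0.000313). AT4 averaged 279 ± 164 and 23.5 ± 12.7 CPM in phr1 phl1, against 2440 ± 1870 and 19.8 ± 17.8 CPM in Col-0, with SynCom first in each pair (−3.31 ± 0.68, adjusted p = 0.00216). The differences were larger still for IPS1 (−6.56 ± 1.04), PEPC1 (−6.53 ± 1.1), PPsPase1 (−5.12 ± 0.97) and MGD3 (−5.03 ± 0.75). For SQD1 the difference was −0.18 ± 0.22 (adjusted p = 0.665), for PHT1;1 −0.44 ± 0.48 (adjusted p = 0.624), for GDPD1 −0.75 ± 0.32 (adjusted p = 0.139) and for AT1G13750 −0.96 ± 0.34 (adjusted p = 0.0748), none past the threshold. SQD1 averaged 182 ± 43.9 CPM with SynCom in phr1 phl1 and 180 ± 69.6 CPM with SynCom in Col-0. The 24 lower Pi genes were 16 to 24 without 1 library, 16 without the libraries that lay apart, 12 without the experiment term, 5 with library pairs summed, 7 without experiment C, 1 without D and 0 in E alone. The count of 1202 was 19 with library pairs summed, 9 without experiment D, 17 without C, 3972 without E, 568 without the libraries that lay apart, and 677, 767 and 792 without SynCom D2, SynCom D1 and no-bacteria D1.

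**Figure D2:**
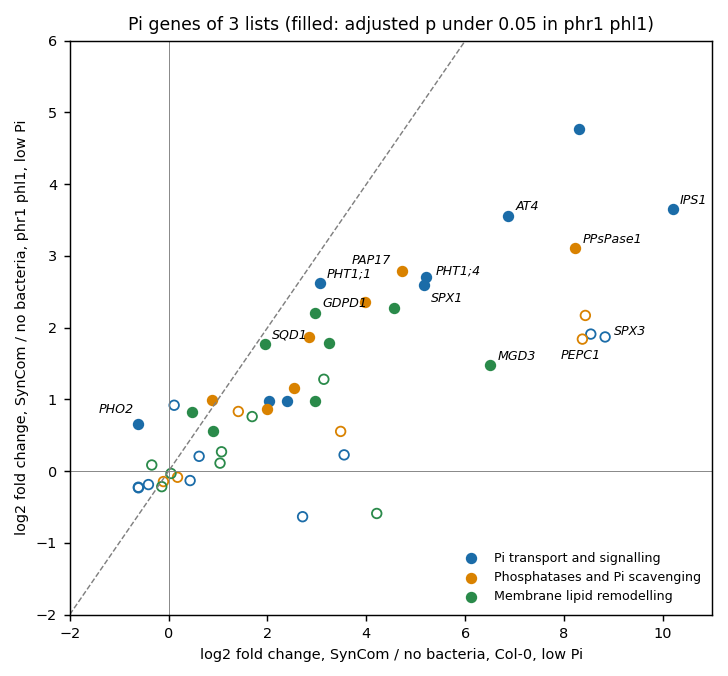
Log2 fold changes with SynCom of the 48 tested Pi genes in phr1 phl1 (y axis) against Col-0 (x axis) at low Pi; each point is a gene, colours are the 3 lists, filled points passed the test in phr1 phl1, and the dashed line marks equal change. Most points lie below the line, SQD1, PHT1;1 and GDPD1 lie near it, and PHO2 lies above it with a negative change in Col-0.

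Against phr1, only 20 genes (0.11%) differed in their SynCom effect, 3 higher (0.0165%) and 17 lower (0.0933%) in phr1 phl1, and 1909 had an unadjusted p under 0.05. Of the 48 Pi genes, 5 were among the 17, namely AT4, SPX1, MGD2, MGD3 and PAP12. AT4 averaged 279 ± 164 CPM with SynCom and 23.5 ± 12.7 CPM with no bacteria in phr1 phl1, and 1410 ± 802 and 4.81 ± 3 CPM in phr1 (difference −4.5 ± 0.73, adjusted p = 0.000317). SPX1 differed by −2.19 ± 0.46 (adjusted p = 0.0212), and its call was lost without no-bacteria library D1 or E1 (adjusted p up to 0.07). The largest difference was in AT1G23110, annotated only as a fold protein (−5.73 ± 0.99, adjusted p = 0.00112), with AT4 next and then AT1G08310, an alpha/beta-hydrolase (−3.87 ± 0.62, adjusted p = 0.000317). The sucrose synthase gene SUS4 differed by −2.83 ± 0.63, and the 3 higher genes were HCF152 (0.80), AT5G62910 (0.65) and Phox2 (0.63). Those of SUS4, HCF152, AT5G62910, Phox2 and MGD3 were each lost without at least 5 single libraries, and none of the 20 differences was called without experiment D. The count was 45 with DESeq2, 201 without experiment E, 37 without SynCom E1, and 8, 10, 13 and 13 without no-bacteria D1, no-bacteria E1, SynCom D1 and no-bacteria E2.

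In phr1 phl1 the response of the Pi genes depended on Pi. At 625 µM Pi, 0 of the 48 genes rose and 0 fell with SynCom, where 1.58% of all genes changed, and their median log2 fold change was 0.04. Tested directly, 13 of the 48 had a higher SynCom effect at low than at high Pi and 0 a lower one, where 1.36% of all genes were higher and 1.21% lower, 2.57% in either direction (468 genes). SPX1 averaged 103 ± 44.7 CPM with SynCom and 16.7 ± 6.01 CPM with no bacteria at low Pi, and 13.5 ± 2.47 and 12.3 ± 3.75 CPM at high Pi (difference 2.49 ± 0.48, adjusted p = 0.00344). The differences of GDPD1 (2.49 ± 0.33, adjusted p = 4.79e-06), SQD1 (1.62 ± 0.23, adjusted p = 7.68e-06), AT4 (4.1 ± 0.73), PPsPase1 (3.89 ± 1.07) and MGD2 (2.1 ± 0.37) pointed the same way. The count of 468 was 7 with library pairs summed, between 83 and 288 without any single library of experiments C or D, 926 without SynCom E1, 1275 without SynCom E2, 1982 without experiment E and 884 with DESeq2. Both these comparisons share libraries with the comparison at low Pi and are not independent of it.

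Immune genes of the salicylic acid branch rose with SynCom in phr1 phl1. Of 31 tested genes of salicylic acid synthesis, signalling and systemic resistance, 18 were higher and 0 lower, where 7.07% of all genes were higher, with a median log2 fold change of 1.37. PR1, a secreted antimicrobial protein used as the readout of salicylic acid, had 55, 98.6, 91.7, 1990, 191 and 78.8 CPM in SynCom libraries C1 to E2, against 0, 0, 13.3, 7.37, 25.8 and 8.27 CPM with no bacteria. Every SynCom library lay above every library with no bacteria; SynCom D2 stood far above its group. The log2 fold change was 5.49 ± 1 (adjusted p = 9.48e-05). Of the other markers, PR2 had medians of 87.5 CPM with SynCom and 10.3 CPM with no bacteria (2.63 ± 0.73, adjusted p = 0.0104), and PR5 had 36.8 and 6.65 CPM (2.46 ± 0.67, adjusted p = 0.00877). The transcription factor genes CBP60G (1.94 ± 0.41, adjusted p = 0.000796) and SARD1 (1.73 ± 0.5, adjusted p = 0.015), which switch on salicylic acid synthesis, rose, as did PAD4 (1.41 ± 0.31), a signalling lipase-like protein, and NIMIN2 (2.15 ± 0.53), which binds the receptor NPR1. The list's count was 8 without SynCom library D2, and 0 without experiment D, with 9 genes in experiment C alone and 0 in E alone. Without SynCom D2, PR2, PR5 and SARD1 lost their calls (adjusted p = 0.0552, 0.132 and 0.0882). No difference in effect passed the test against Col-0, where 12 rose (11.6% of all genes did) at a median of 0.80, or against phr1, where 23 rose (9.55% of all genes) at a median of 1.85. At high Pi 0 rose and 1 fell, where 0.461% of all genes rose and 1.12% fell, and 2, PAD4 and NIMIN2, had a higher SynCom effect at low than at high Pi (1.88 ± 0.44, adjusted p = 0.0189, and 3.04 ± 0.78, adjusted p = 0.0267).

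Of 28 tested genes of pattern-triggered immunity, the response to bacterial surface molecules, 6 rose and 0 fell, where 7.07% of all genes rose. FRK1, a receptor kinase gene used as its early marker, had 40.4, 51.6, 27.3, 55.2, 92.3 and 142 CPM with SynCom, against 1.14, 1.7, 3.41, 2.89, 7.31 and 2.07 CPM with no bacteria. The groups were far apart, and experiment E held the highest SynCom values. The log2 fold change was 4.39 ± 0.6 (adjusted p = 4.3e-07). FRK1 rose also in phr1 (4.59 ± 0.62), in Col-0 (3.23 ± 0.61) and at high Pi in phr1 phl1 (3.26 ± 0.6, adjusted p = 0.000606), and none of the 3 differences passed the test. At high Pi FRK1 was the 1 gene of the list called, and the list had a median of −0.61, with 4 of 28 fold changes positive. WRKY29, a transcription factor downstream of pattern receptors, ran at 15.6, 20 and 30 CPM with SynCom and 2.24, 4.02 and 12.4 CPM with no bacteria (2.03 ± 0.32, adjusted p = 5.89e-06). The receptor gene RLP23 (2.24 ± 0.57) and the kinase gene BIK1 (0.91 ± 0.26) rose too, whereas the median of the list, 0.43, equalled that in Col-0. The receptor genes FLS2, EFR and CERK1 were in the list and did not pass the test.

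Camalexin and indole glucosinolate genes, which make tryptophan-derived antimicrobials, included 8 of 18 that rose and 0 that fell, where 7.07% of all genes rose. CYP79B2, the first step of the pathway, ran at 38.4, 96.1 and 141 CPM with SynCom and 16, 37.5 and 50.6 CPM with no bacteria, the lowest SynCom library, D1, lying within the other group (1.7 ± 0.31, adjusted p = 9.12e-05). CYP83B1, on the branch to indole glucosinolates, rose by 1.07 ± 0.21 (adjusted p = 0.000318). CYP71A13, on the branch to camalexin, rose by 2.16 ± 0.67 (adjusted p = 0.0235), a call lost without SynCom E1 (adjusted p = 0.209), SynCom D2 or either no-bacteria library of experiment C. The list's count was 2 without SynCom D2. In phr1 15 of the 18 rose, where 9.55% of all genes did, and in Col-0 6, where 11.6% did. No difference in SynCom effect passed the test. Of 29 tested jasmonate and ethylene genes 2 rose, the transcription factor genes ERF1 and MYC3, a share near the 7.07% of all genes, and of 20 aliphatic glucosinolate genes 3 rose (CYP79F2, MAM3 and AT2G31790), against a list median of −0.21. Of 11 senescence genes 2 rose, SAG13 (3.64 ± 0.68, adjusted p = 0.00015) and WRKY6. SAG13 ran at 8.76, 31.1 and 64.6 CPM with SynCom and 0.321, 2.42 and 8.27 CPM with no bacteria.

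**Figure D3:**
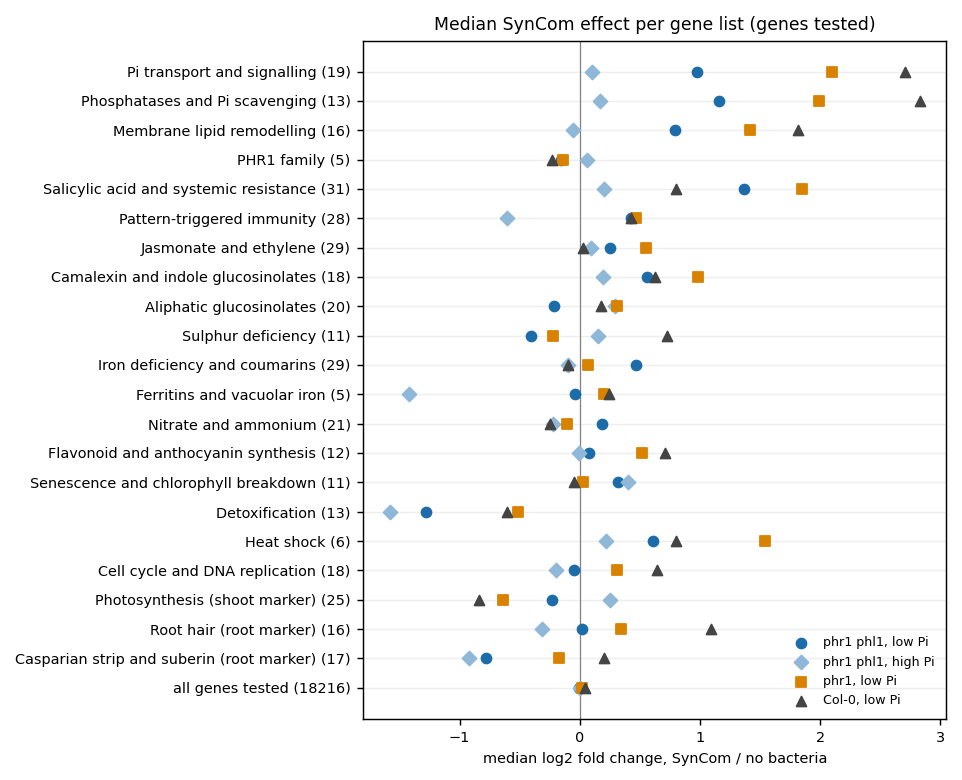
Median log2 fold change with SynCom of the tested genes of each list, with the number tested in brackets; markers are phr1 phl1 at low Pi, phr1 phl1 at high Pi, phr1 at low Pi and Col-0 at low Pi. The Pi lists stand at 0.80 to 1.16 in phr1 phl1 at low Pi and at 1.82 to 2.83 in Col-0, while the detoxification list is negative in all 4.

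Of 29 tested iron deficiency genes, 11 rose and 1 fell, where 7.07% of all genes rose and 5.23% fell; the list median was 0.47, and −0.09 in Col-0. The count of risen genes was 8 without SynCom E2, 11 without SynCom D1 and 13 without SynCom E1. The regulator gene bHLH38 had 0.878, 2.94, 13.4, 0, 0.363 and 69.1 CPM in SynCom libraries C1 to E2, against 0 to 1.22 CPM with no bacteria, so that D1 and E2 stood out and the other SynCom libraries lay close to the group with no bacteria (4.01 ± 0.81, adjusted p = 0.000399). BHLH100 and the iron-responsive peptide genes AT1G47400, AT1G47395 and AT2G30766 were highest in the same 2 libraries. FRO2, the root ferric reductase, had 13.7, 8.81, 1.98, 7.26, 108 and 187 CPM with SynCom, against 4.09, 1.45, 1.55, 0.641, 40 and 73.4 CPM with no bacteria, each SynCom library being above its own experiment's libraries with no bacteria. Its log2 fold change was 1.79 ± 0.46 (adjusted p = 0.00542). The iron transporter gene IRT1, with its highest levels in experiment E in both groups, had SynCom and no-bacteria libraries that overlapped (1.51 ± 0.5, adjusted p = 0.0331), but its call was lost without any one of SynCom C1, D2 and E2 and no-bacteria C2, D2 and E1 (adjusted p up to 0.135). OPT3, which loads iron into the phloem, rose by 0.81 ± 0.18 (adjusted p = 0.00159). The fallen gene was NAS2, a nicotianamine synthase gene, at 0 to 1.88 CPM with SynCom and 0.321 to 6.3 CPM with no bacteria (−2.81 ± 0.56, adjusted p = 0.000369).

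Tested against Col-0, 6 of the 29 iron genes had a higher SynCom effect in phr1 phl1 and 0 a lower one, where 3.18% of all genes were higher. FRO2 differed by 2.42 ± 0.7 (adjusted p = 0.0268), IRT1 by 3.02 ± 0.76 (adjusted p = 0.0133) and OPT3 by 1.07 ± 0.26 (adjusted p = 0.00954). IRT1 averaged 37.3 ± 54.7 CPM with SynCom and 17.7 ± 25.5 CPM with no bacteria in phr1 phl1, and 5.7 ± 7.61 and 12.1 ± 16.7 CPM in Col-0, so each group spread as widely as its mean. CYP82C4, which makes a coumarin exuded under iron shortage, was read at 0 CPM in every Col-0 library with SynCom. In phr1 phl1 it was read at 4 and 23.5 CPM in the SynCom libraries of experiment E, and at 0 in the other SynCom libraries. Its SynCom effect in phr1 phl1 did not pass the test, at a log2 of −1.94 to 0.376 without 1 library. With limma-voom 5 iron genes rose and 2 differed from Col-0, with experiment D left out 2 rose and 0 differed, and with library pairs summed 0 differed. The iron storage list had 1 fallen gene of 5, AT3G25190, of the vacuolar iron transporter family, at 19.4, 38.1 and 52.4 CPM with SynCom and 65.4, 83.2 and 137 CPM with no bacteria, without overlap (−1.18 ± 0.25, adjusted p = 0.000813).

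**Figure D4:**
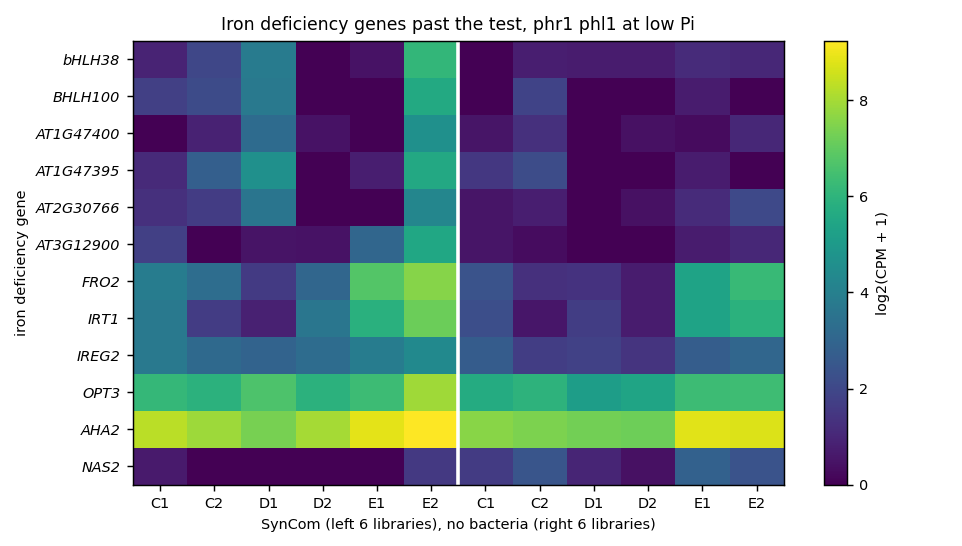
Levels of the 12 iron deficiency genes past the test in phr1 phl1 at low Pi, one row a gene, as log2(CPM + 1) in colour, with the 6 SynCom libraries left of the white line and the 6 with no bacteria right of it. SynCom E2 and D1 are brightest for bHLH38, BHLH100 and the 3 peptide loci, and both libraries of experiment E are bright for FRO2 and IRT1 in either group.

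Most detoxification genes fell. Of 13 tested, 8 were lower with SynCom and 1 higher, where 5.23% of all genes were lower and 7.07% higher, with a median log2 fold change of −1.28. CYP81D11, a cytochrome P450 induced by foreign chemicals, ran at 1.17, 4.45 and 7.97 CPM with SynCom and 12.8, 19.6 and 91 CPM with no bacteria, without overlap (−2.96 ± 0.43, adjusted p = 1.81e-06). GSTU24, a glutathione transferase gene, ran at 1.46, 3.54 and 5.08 CPM with SynCom and 8.66, 16 and 52.6 CPM with no bacteria, also without overlap (−2.72 ± 0.4, adjusted p = 2.23e-06). In both genes the 2 libraries of experiment E held the highest values with no bacteria, and these 2 genes had their largest falls there. GSTU25, a near copy of GSTU24 with which reads may be shared, fell by 2.78 ± 0.5, and OPR2, an oxophytodienoate reductase gene, by 1.72 ± 0.31 on the log2 scale. The risen gene was AOX1D, an alternative oxidase gene, and its call rests on SynCom D2 (2.29 ± 0.7, adjusted p = 0.0211; 1.46, adjusted p = 0.196 without that library; also lost without SynCom E1 or no-bacteria C1, D1 or D2). At high Pi 9 of the 13 fell and 0 rose, where 1.12% of all genes fell. CYP81D11 fell there by 3.02 ± 0.43, and its difference between low and high Pi was 0.06 ± 0.62 (adjusted p = 0.986). The 1 gene whose effect differed from Col-0 was GSTU24 (−1.86 ± 0.53, adjusted p = 0.0254).

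A few nitrate and sulphate assimilation genes fell. Nitrate reductase gene NIA1 ran at 14.5, 21.9 and 251 CPM with SynCom and 49.4, 118 and 269 CPM with no bacteria, overlapping because experiment E was high in both groups (−1.28 ± 0.34, adjusted p = 0.00763). Nitrite reductase gene NIR1 fell by 0.86 ± 0.17 (adjusted p = 0.000306), and AT3G25790, a MYB-like regulator gene, by 1.93 ± 0.57 (adjusted p = 0.0182). NRT3.1, a partner of high-affinity nitrate transporters, and the glutamine synthetase gene GLN1;1 rose (1.29 ± 0.25 for NRT3.1, adjusted p = 0.000257), so that 2 of the 21 tested genes of the list were higher and 3 lower, where 7.07% of all genes were higher and 5.23% lower. AT3G25790 ran at 0, 0.648 and 2.91 CPM with SynCom and 2.24, 3.6 and 8.27 CPM with no bacteria in phr1 phl1, rose in Col-0 (2.01, adjusted p = 0.000386), and differed between the genotypes by −3.93 ± 0.71 (adjusted p = 0.000469). Without SynCom D2 its fall in phr1 phl1 missed the threshold (adjusted p = 0.0601). Of 11 sulphur genes 0 rose and 2 fell, where 7.07% of all genes rose and 5.23% fell. The fallen genes were the sulphate exporter gene SULTR4;2 (−1.5 ± 0.3, adjusted p = 0.000358) and the sulphate reductase gene APR3 (−0.99 ± 0.27, adjusted p = 0.00915). The list's count of fallen genes was 0 without experiment C, 1 without D and 7 without E. Its median log2 change was −1.15 in C, −0.92 in D and 0.35 in E. SULTR4;2 ran at 1.45 to 5 CPM with SynCom and 2.07 to 14.1 CPM with no bacteria.

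Among root and growth lists, endodermal wall genes fell in part and the others showed few or no calls in phr1 phl1. Of 17 Casparian strip and suberin genes, which wall off the endodermis, 4 fell and 0 rose, where 5.23% of all genes fell, with a median of −0.78. CASP2 ran at 0.363, 2.43 and 5.81 CPM with SynCom and 4.61, 7.66 and 14.5 CPM with no bacteria (−1.67 ± 0.37, adjusted p = 0.0012). CASP1 (−1.43 ± 0.41), PER64 and CYP86B1 (−1.37 ± 0.42) were the others. CASP1 sat at the threshold without no-bacteria library C1 (adjusted p = 0.05), CYP86B1 missed it without SynCom C2, SynCom D1 or no-bacteria C1 (adjusted p up to 0.0601), and the list's count was 1 without no-bacteria C1. In Col-0 4 of the 17 rose and 0 fell, where 11.6% of all genes rose and 11.2% fell. Against Col-0, 3 of the 17 had a lower effect in phr1 phl1, where 3.42% of all genes did. The effect of CYP86B1, which oxidises suberin fatty acids, differed by −2.32 ± 0.55 (adjusted p = 0.00803). In phr1 phl1 at high Pi 5 of the 17 fell and 0 rose, at a median of −0.92, where 1.12% of all genes fell. No difference between low and high Pi passed the test. Of 16 root hair genes 2 rose, PRP1 and XTH26, both read almost only in experiment E, with a list median of 0.02. Their calls were lost without no-bacteria library E1 (adjusted p = 0.531 and 0.0782), and that of PRP1 without SynCom C2, SynCom E1 or no-bacteria D2 too (adjusted p up to 0.104). No cell cycle gene of 18 passed the test, at a median of −0.04, against 10 higher in Col-0 at 0.64, where 11.6% of all genes rose. None of the 25 photosynthesis genes passed either, at a median of −0.23, against 21 lower in Col-0 at −0.84, where 11.2% fell. Fitted on the 12 phr1 phl1 libraries alone, 11 of the 25 were lower. That fit called 2286 genes in all, 1176 of them higher and the rest lower. In experiments C, D and E the Col-0 medians were 0.64, 1.3 and −0.08 for cell cycle genes. For photosynthesis genes they were −0.92, −3.05 and −0.08. The direct test against Col-0 called 1 cell cycle gene, lower in phr1 phl1, and 0 photosynthesis genes. Heat shock genes changed in 0 of 6 cases and flavonoid genes in 1 of 12 (PAL1, higher).

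The highest fold changes among genes with at least 1 CPM and one sign in every experiment included 4 genes of 1 stretch of chromosome 4 that also holds AZI1, all of the lipid-transfer protein superfamily. AIR1 (AT4G12550), first described as induced by auxin in root cultures, had 239, 200, 120, 255, 31.2 and 20 CPM with SynCom, against 2.04, 3.39, 2.17, 1.28, 9.75 and 18.6 CPM with no bacteria. The groups barely missed each other in experiment E and were far apart in C and D (5.34 ± 0.56, adjusted p = 7.11e-10). AT4G12490 (5.2 ± 0.69), AT4G12500 (4.98 ± 0.7) and AT4G12545 (4.46 ± 0.53) rose likewise without overlap of the groups, and AZI1, which primes systemic defence, rose by 1.91 ± 0.47. AIR1 averaged 144 ± 103 CPM with SynCom and 6.21 ± 6.81 CPM with no bacteria in phr1 phl1, against 11.6 ± 8.91 and 5.93 ± 3.11 CPM in Col-0, and the SynCom effect differed by 4.43 ± 0.78 (adjusted p = 0.000322). AT4G12545 differed by 3.15 ± 0.74 (adjusted p = 0.00806), whereas AT4G12490 (1.41 ± 1.03) and AT4G12500 (0.84 ± 1.12) did not pass. AT1G66800, annotated as an oxidoreductase with a Rossmann fold, was at 0 in all 6 libraries with no bacteria and at 0.726 to 4.68 CPM with SynCom, at least 13.3-fold higher against a floor of 3 counts over the group. PCR1, a membrane protein of the cadmium resistance family, ran at 31.9, 190 and 726 CPM with SynCom and 1.94, 9.51 and 27.3 CPM with no bacteria (4.58 ± 0.71). AT1G13609, a defensin-like gene, ran at 0 to 101 CPM with SynCom and 0 to 1.7 CPM with no bacteria (5.49 ± 1.08).

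The lowest fold change was that of AACT1, an acyltransferase gene, at 0, 0.924 and 6.54 CPM with SynCom and 5.69, 30.7 and 63.8 CPM with no bacteria, overlapping at the edge (−4.2 ± 0.75, adjusted p = 7.27e-05). AT1G60750, an oxidoreductase gene, ran at 0 to 1.25 CPM with SynCom and 3.21 to 15.6 CPM with no bacteria (−4.03 ± 0.59, adjusted p = 1.92e-06), and it fell at high Pi too (−3.65 ± 0.59). CLE5, a signalling peptide gene, fell by 3.34 ± 0.6 on the log2 scale. MDP40, a gene for a microtubule-associated protein, ran at 0 to 1.09 CPM with SynCom and 1.22 to 4.65 CPM with no bacteria (−2.3 ± 0.49, adjusted p = 0.000793). It rose in Col-0 (0.96 ± 0.35, adjusted p = 0.0372), and its effect differed from Col-0 by −3.26 ± 0.6 and from high Pi by −3.14 ± 0.62. OCT1, an organic cation transporter gene, averaged 0.766 ± 0.443 CPM with SynCom and 1.89 ± 1.19 CPM with no bacteria in phr1 phl1, against 71.3 ± 31.9 and 2.65 ± 2.37 CPM in Col-0, a difference of −6.42 ± 0.86 (adjusted p = 1.99e-06). HDG8, a homeodomain gene, rose in phr1 phl1 (2.44 ± 0.68, adjusted p = 0.013, or 0.0543 without SynCom C2) and more in Col-0 (8.05 ± 0.84), with a difference of −5.61 ± 1.33. The beta-glucosidase gene DIN2 rose in phr1 phl1 (2.58 ± 0.58, adjusted p = 0.00159) and not in Col-0 (−0.77 ± 0.7, adjusted p = 0.463), with a difference of 3.35 ± 0.91 (adjusted p = 0.0193).

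The response differed between experiments, and mostly in E. Tested alone, experiment C gave 1181 genes, D 1014 and E 89, and the 2241 genes had mean absolute log2 changes of 1.04, 1.2 and 0.575 in C, D and E. The experiments also differed in Col-0, with 2135, 5016 and 253 genes. Counts of genes called in 1 experiment also depend on spread and depth. The chi-square per degree of freedom between the 2 SynCom libraries of phr1 phl1 was 2.987, 6.814 and 10.09 in C, D and E. Between the 2 libraries with no bacteria it was 3.786, 3.027 and 1.919. The interaction of experiment and SynCom in the 12 libraries passed in 51 of 16115 genes (0.316%), and E lay farthest from the mean of the others in 42 of them. For the 48 Pi genes the median log2 change was 0.87 in C, 0.80 in D and 0.62 in E. By list it was 0.56, 0.88 and 0.61 for transport and signalling, 1.22, 0.72 and 0.99 for phosphatases, and 0.64, 0.76 and 0.28 for membrane lipids, so only the lipid list was lowest in E. Of the 24 genes that rose, 22 were larger in C than in E and 20 larger in D than in E. This was not counted over the 2241 genes called, whose mean absolute changes were also smallest in E. GDPD1, the one Pi gene named as past the interaction test, had log2 changes of 3.18 in C, 2.16 in D and 1.23 in E (adjusted p = 0.0464). AIR1 changed by 6.11, 6.31 and 0.87 (adjusted p = 0.00448) and AT4G12545 by 5.77, 4.7 and 0.85 (adjusted p = 0.0222). Among falling genes, COR413IM1, a cold-regulated chloroplast membrane protein gene, changed by −3.83, −3.48 and −0.10 (adjusted p = 0.00237), NIA1 by −2.41, −2.09 and 0.01 (adjusted p = 0.0292), and APR3 by −2.03, −1.6 and 0.31 (adjusted p = 0.0306). Over all experiments COR413IM1 ran at 4.35, 8.08 and 30.1 CPM with SynCom and 30.5, 77.1 and 118 CPM with no bacteria (−1.85 ± 0.53, adjusted p = 0.0137), a call that ended without any 1 SynCom library of C or D (adjusted p up to 0.0614).

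**Figure D5:**
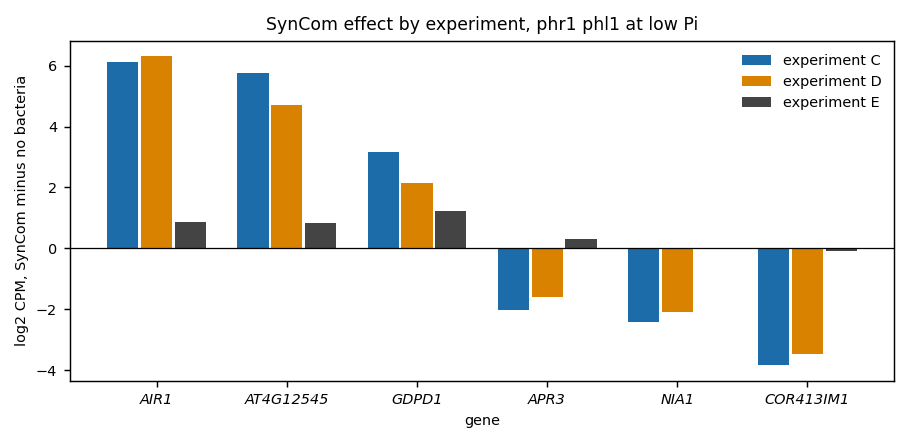
Difference in mean log2 CPM, SynCom minus no bacteria, of 6 genes in experiments C, D and E alone (2 libraries a group in each), phr1 phl1 at low Pi. Bars of experiment E are the shortest for AIR1, AT4G12545, GDPD1, NIA1 and COR413IM1, and that of APR3 points the other way.

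Reads of genes that overlap a neighbour cannot be assigned without strand. Among the genes above this concerns AIR1, AT4G12490, AT4G12545, GDPD1, PAP17, AT1G13750, PAP10, PPCK1, PLDZETA2, UGP3, FRK1, WRKY29, RLP23, SARD1, CYP71A13, CYP81D11, bHLH38, OPR2, SULTR4;2, APR3, CASP1, OCT1, AT1G23110, AT1G08310, HCF152 and AT5G62910.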

How the data were processed

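RNA-seq libraries of whole Arabidopsis seedlings were analysed as deposited. The authors deposited raw read counts per gene; poly(A) libraries were made without strand information, per the labels' protocols. CASAVA 1.8, cutadapt 1.3, TopHat2 2.1.1, HTSeq 0.6.1p1 and the build TAIR10 are named, per the submitters' processing notes, and how they were set is not stated there. Without strand, reads of overlapping genes cannot be told apart, and near-identical copies may share reads.

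From these counts, the 72 libraries of experiments C, D and E (12 groups of 6) were fitted in R 4.3.3 with edgeR 4.0.16: filterByExpr kept 18216 of 27206 loci, TMM scaled the libraries, and quasi-likelihood tests used group means with experiment as a block. All adjusted p-values in the text are Benjamini-Hochberg values of that test over all genes, with a threshold of 0.05, unless another tool is named. Log2 fold changes are SynCom over no bacteria, with SE; differences of fold changes are phr1 phl1 minus Col-0, phr1 phl1 minus phr1, or low minus high Pi. CPM values are TMM-scaled, not per length, and so compare libraries, not genes. The script recovered known changes in simulated data. These had independent libraries with no differences between experiments, so they do not bear on how the calls depend on experiment or library pairs.

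The members and gene lists were chosen with earlier results of these data known. Genes were named by a rule: the 2 mutated genes, in every list the 6 with smallest p, the 12 highest and 12 lowest changes of one sign in every experiment with at least 1 CPM, and the 6 highest and lowest differences of each comparison between conditions; not every one is given values. PHO2, PEPC1, SPX3, FLS2, EFR, CERK1, MGD3, PHF1, PAP10, UGP3 and others outside that rule were named after their values were seen.

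Alternatives were DESeq2 1.42.0, limma 3.58.1 (voom), other scalings and filters, no experiment term, a replicate block, all libraries of the series, summed library pairs, and leaving out each library or experiment. The 12 libraries were also fitted alone. Fits of single experiments and without the libraries lying apart were chosen after seeing the data. Same-numbered libraries did not deviate together (r = 0.039, −0.0825 and 0.00684 in C, D and E), and the main fit did not treat them as pairs. RefSeq (TAIR10.1) matched 18204 of the 18216 genes by locus.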

Additional observations from a re-analysis of the deposited data

Results flagged for a closer look

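In 16 of 182 groups of 6 libraries of named genes, 1 library lay apart from the others by Dixon's criterion, where chance gives about 1 in 20. Among SynCom libraries of phr1 phl1 at low Pi, E1 was apart for SPX1 (22.5 CPM), SQD1 (102 CPM) and RLP23 (218 CPM), and E2 for MGD3 (28.5 CPM) and OPT3 (244 CPM). D2 was apart for PR1 (1990 CPM) and OPR2 (0.363 CPM), and D1 for CYP79B2 (38.4 CPM) and AT3G25190 (19.4 CPM). Among libraries with no bacteria, E1 was apart for PHR1 (27.6 CPM) and XTH26 (0.203 CPM), E2 for PHT1;2 (1.03 CPM) and PRP1 (4.13 CPM), C1 for bHLH38 (0 CPM), C2 for AZI1 (138 CPM) and D2 for CYP71A13 (0.641 CPM).

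The SynCom effect of several named genes differed between phr1 phl1 and Col-0 at low Pi by edgeR's test of the difference. Lower in phr1 phl1, as log2 differences, were the Pi genes SPX1 (−2.57), SPX2 (−1.06), SPX3 (−6.97), IPS1 (−6.56), AT4 (−3.31), PHF1 (−1.41), PHT1;3 (−6.64), PHT1;4 (−2.50), PAP12 (−1.13), PAP17 (−1.92), PPsPase1 (−5.12), PEPC1 (−6.53), PPCK1 (−1.37), MGD2 (−1.48), MGD3 (−5.03), SQD2 (−1.99) and PLDZETA2 (−2.27). Also lower were GSTU24 (−1.86), AT3G25790 (−3.93), SULTR4;2 (−1.28), CYP86B1 (−2.32), MDP40 (−3.26), HDG8 (−5.61), OCT1 (−6.42), AT1G23110 (−5.01), AT1G08310 (−4.44) and SUS4 (−3.84). Higher in phr1 phl1 were PHO2 (1.27), FRO2 (2.42), IRT1 (3.02), OPT3 (1.07), CYP82C4 (7.05, a fitted value against a group at 0 and no bound), AIR1 (4.43), AT4G12545 (3.15), DIN2 (3.35), HCF152 (0.77), AT5G62910 (0.77) and Phox2 (0.76). PHT1;3 lost its call without no-bacteria library E1 (adjusted p = 0.238). SPX3, near 0 reads in both phr1 phl1 groups, lost its call without SynCom D1 or D2 or no-bacteria D1, E1 or E2 (adjusted p up to 0.154).

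Against phr1, the effects of SPX1 (−2.19), AT4 (−4.50), PAP12 (−1.12), MGD2 (−1.65), MGD3 (−3.38), AT1G23110 (−5.73), AT1G08310 (−3.87) and SUS4 (−2.83) were lower in phr1 phl1, and those of HCF152 (0.80), AT5G62910 (0.65) and Phox2 (0.63) higher.

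Between low and high Pi in phr1 phl1, the effect was higher at low Pi for PHL1 (1.52), SPX1 (2.49), AT4 (4.1), PHO2 (1.09), PHT1;1 (2.01), PHT1;4 (2.47), AT1G13750 (1.31), PAP17 (2.28), PPsPase1 (3.89), GDPD1 (2.49), MGD2 (2.1), SQD1 (1.62), DGD1 (0.78) and PLDZETA2 (2.26). It was also higher for PAD4 (1.88), NIMIN2 (3.04), FRO2 (2.2), CYP82C4 (4.28), AT1G66800 (5.74), AIR1 (3.31), AT4G12545 (3.20), HDG8 (4.08) and AT1G23110 (3.52), and lower for AACT1 (−3.40), MDP40 (−3.14) and COR413IM1 (−2.39). AT1G66800 was at 0 in all 6 low-Pi libraries with no bacteria, so its value is fitted and no bound. Calls were lost without single libraries in 10 cases for COR413IM1 (every library of C and D, and both no-bacteria libraries of E; adjusted p up to 0.113). They were lost in 7 cases for HDG8 (every library of C and D but SynCom D1 and no-bacteria C2, and no-bacteria E1; up to 0.087) and in 7 for AT1G66800 (all libraries of C, both D2 libraries and no-bacteria E1; up to 0.0774). They were lost in 6 cases for AACT1 (all of C and SynCom D1 and D2; up to 0.0981) and in 5 for CYP82C4 (SynCom C1, C2, D2 and E2 and no-bacteria E1; up to 0.238). For PHL1, 1 high-Pi library with no bacteria lay far above the others.

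Between experiments C, D and E the SynCom effect in phr1 phl1 differed for COR413IM1 (adjusted p = 0.00237), AIR1 (0.00448), AT4G12545 (0.0222), NIA1 (0.0292), APR3 (0.0306) and GDPD1 (0.0464).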

How the results depend on the processing

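The counts of genes depended most on which experiments were fitted. The 2241 genes of the SynCom effect in phr1 phl1 were 613 without the experiment term, 961 with library pairs summed, 423 without C, 507 without D, 1181, 1014 and 89 in C, D and E alone, and 1283 to 2818 without 1 library. The 1202 differences to Col-0 were 159 without the experiment term, 2935 with all libraries of the series, 19 with pairs summed, 17 without C, 9 without D, 3972 without E, 443, 2844 and 0 in C, D and E alone, 568 without the libraries lying apart, and 677 to 1718 without 1 library. The 20 differences to phr1 were 45 by DESeq2, 3 without the experiment term, 1 with pairs summed, 4 without C, 0 without D, 201 without E, 14, 2 and 0 in C, D and E alone, and 8 to 37 without 1 library. The 468 differences to high Pi were 884 by DESeq2, 299 with no filter, 19 without the experiment term, 793 with all libraries, 7 with pairs summed, 2 without C, 4 without D, 1982 without E, 483, 338 and 0 in C, D and E alone, and 83 to 1275 without 1 library. The 51 genes of the experiment interaction were 1022 with no filter. By limma-voom, 733 of 1152 differences to Col-0 were higher (579 of 1202 by edgeR), and 172 of 448 differences to high Pi (247 of 468). The causes were not tested.

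What libraries of the same replicate number have in common beyond that number is not stated. With a replicate block of experiment and number, the counts were 2257, 1200, 21 and 473, against 2241, 1202, 20 and 468 without it.

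Single genes changed sign in some settings: PHR1 in E alone (0.0336), PHL1 without E (0.0126) and in C (0.0111) and D (0.00956) alone, NIA1 (0.0225) and APR3 (0.351) in E alone, and OCT1 in D alone (0.0415). Of these, NIA1 and APR3 had passed the main test, and their effects differed between experiments. CYP82C4 ran between −1.94 and 0.376 without 1 library, the highest without SynCom E1. It was 0.21 without the experiment term, 0.0256 without C, 0.175 in E alone and 0.0949 without the libraries lying apart. In E alone the differences to Col-0 were −0.169 for AIR1 and −0.722 for AT4G12545, and that to high Pi was 0.818 for AACT1.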
